A study of Mus musculus with 17 samples.

Results

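The genes described here make the enzymes and the carrier that bring long-chain fatty acids into mitochondria and shorten them there and in peroxisomes. The list held 9 genes, Cpt2, Slc25a20, Acadvl, Acadl, Acadm, Hadh, Decr1, Ech1 and Ehhadh, and every probe set annotated to one of them and to no other symbol was taken from both array types. That gave 10 probe sets for 8 genes, out of 6137 genes named by a single symbol and 13069 probe sets in all. Slc25a20 and Acadm have 2 probe sets each, and Ehhadh, the bifunctional peroxisomal enzyme, has none. All 10 passed the filter on dim probe sets in liver, which kept 6537.

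The RNA came from liver and hippocampus of male Rj:NMRI mice, an outbred stock. The mice were fed purified powder diets from the first day until they were killed on day 57 or 58. Control mice ate a diet with neither test oil, and in the other diets part of the medium-chain triacylglycerol oil was exchanged for 1.1% by weight of a fungal oil rich in arachidonate, 1.9% of a fish oil rich in docosahexaenoate, or both oils. The oil diets thus also held less medium-chain fat, itself a substrate of beta-oxidation, and the added oil cannot be told apart from the fat it displaced. Each diet went to 10 mice, of which 5 were selected for analysis, and food stayed in the cages overnight, so the mice were not fully fasted, although they may have gone some hours without eating. There were 2 liver RNAs of control mice and 1 for each of the oil diets, and in hippocampus 1 for every diet. Each RNA went on 2 Affymetrix oligonucleotide arrays, called chip A and chip B here, but the hippocampal RNA from the combined diet was analysed on chip B only. Whether the 2 liver controls are different mice, pools or repeats is not in the labels. The p-values of the liver diet comparisons therefore reflect the spread between this pair alone, which may be technical. Those between the tissues also take in how differently the tissues varied over the diets.

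In beta-oxidation, a fatty acid activated to its acyl-CoA is passed across the inner mitochondrial membrane as a carnitine ester and then loses acetyl-CoA in rounds of dehydrogenation, hydration, a further dehydrogenation and thiolysis. Double bonds, which abound in arachidonate and docosahexaenoate, need auxiliary enzymes that reposition or reduce them. In liver the pathway supplies energy and ketone bodies during fasting, and many of its genes are known targets of PPAR-alpha, a nuclear receptor that fatty acids activate and that binds pairs of hexamer half-sites. The brain oxidises little long-chain fat.

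Promoter sequences of 8 of the 9 genes, Ehhadh among them, were found in the RefSeq table for GRCm38.p6, and Decr1 had no entry. Below are 5 of them, those of the genes with an entry that read furthest above the controls with a single oil (Cpt2, Slc25a20, Ech1, Acadm) and that of Acadl, which did not move with fungal oil. Each runs from 250 bases before the annotated start to 30 after it. Capitals mark a GC box (GGGCGG), a nuclear receptor half-site (AGGTCA), each on either strand, or a direct repeat of that half-site with 1 base between (DR1, AGGTCANAGGTCA) with up to 2 mismatches, whose matches may overlap a half-site.
Cpt2: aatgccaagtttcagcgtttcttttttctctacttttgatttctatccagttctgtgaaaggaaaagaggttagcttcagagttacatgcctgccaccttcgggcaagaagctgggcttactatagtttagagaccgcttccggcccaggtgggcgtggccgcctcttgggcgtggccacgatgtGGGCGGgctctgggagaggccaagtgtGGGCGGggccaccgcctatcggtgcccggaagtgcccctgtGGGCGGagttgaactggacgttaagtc
Slc25a20: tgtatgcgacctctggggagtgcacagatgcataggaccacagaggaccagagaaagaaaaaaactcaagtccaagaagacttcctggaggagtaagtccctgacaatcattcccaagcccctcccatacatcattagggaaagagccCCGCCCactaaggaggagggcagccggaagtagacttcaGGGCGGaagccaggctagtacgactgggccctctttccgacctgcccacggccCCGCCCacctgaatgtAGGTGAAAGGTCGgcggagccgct
Ech1: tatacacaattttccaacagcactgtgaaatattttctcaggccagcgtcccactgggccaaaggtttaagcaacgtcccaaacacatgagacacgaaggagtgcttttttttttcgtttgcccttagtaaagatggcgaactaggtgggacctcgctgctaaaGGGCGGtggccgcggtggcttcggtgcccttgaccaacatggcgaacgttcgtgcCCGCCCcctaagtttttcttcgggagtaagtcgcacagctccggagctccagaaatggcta
Acadm: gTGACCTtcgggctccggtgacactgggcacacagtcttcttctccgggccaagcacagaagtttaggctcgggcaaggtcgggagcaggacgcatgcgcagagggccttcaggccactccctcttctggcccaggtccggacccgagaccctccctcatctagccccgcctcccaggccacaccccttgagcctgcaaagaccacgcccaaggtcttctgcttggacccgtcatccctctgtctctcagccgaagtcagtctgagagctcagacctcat
Acadl: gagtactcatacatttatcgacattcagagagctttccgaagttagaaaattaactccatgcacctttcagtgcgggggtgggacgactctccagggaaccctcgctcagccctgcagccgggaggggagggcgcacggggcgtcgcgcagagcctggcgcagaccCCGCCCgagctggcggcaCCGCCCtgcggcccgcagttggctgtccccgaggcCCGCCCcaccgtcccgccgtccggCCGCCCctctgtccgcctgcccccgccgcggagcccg
The Cpt2 stretch lies at chr4:107923560-107923839 on the minus strand, Slc25a20 at chr9:108661886-108662165 on the plus strand, and Ech1 at chr7:28825088-28825367 on the plus strand. Acadm lies at chr3:153944614-153944893 and Acadl at chr1:66863280-66863559, both on the minus strand.

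Counted over 300 bases (250 before to 50 after the start), a GC box was present in 6 of the 8 promoters, against 35.7% of the 32851 promoters in the table. Cpt2 and Slc25a20 have 3 each, Ech1 and Ehhadh 2, and Acadl and Hadh 4. The exact half-site occurs once in Acadm, at bases -249 to -244, and once in Acadvl, at -87 to -82, and 16.3% of all promoters hold it. Only Slc25a20 has a DR1 match, AGGTGAAAGGTCG at bases 7 to 19 after the start with 2 mismatches, and 3.86% of all promoters have a match that close. The 8 promoters hold a median of 59.3% G and C and 15.5 CpG pairs, against 52.7% and 7 over all promoters. These are matches of letters in a short window and say nothing of binding.

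Across the oil diets the liver signals of these genes lay above the controls almost throughout. Of 30 values, 10 probe sets in 3 oil RNAs, 28 exceeded both controls and 0 lay below both. Slc25a20 and Acadm enter this count with 2 probe sets each. These genes were chosen with earlier results of these data known. This count, and the liver counts and medians of members given below, are thus no independent result. Over all kept probe sets 32.1% exceeded both controls with fungal oil, 36.4% with fish oil and 39.9% with both oils. The median log2 change over the 8 genes was 0.28 with fungal oil, 0.50 with fish oil and 0.45 with both oils, against -0.0090, 0.0081 and 0.05 over all kept probe sets. In the medians over the 8 genes, a gene with several probe sets counts by its brightest one. The 3 oil RNAs are set against the same 2 control RNAs, so a low reading in these would raise all of them together. For the members the controls differed from each other by 0.0045 to 0.42 on the log2 scale, under 0.1 for 6 of 10 probe sets, whereas the standard deviation of that difference was 0.67 over all kept probe sets and 0.37 over the 3269 brightest of these. Values clear 2 close controls more easily than 2 distant ones, so the shares over all kept probe sets are not a like baseline. The share above both controls was not counted among the brightest. No member probe set passed after Benjamini-Hochberg adjustment over all probe sets.

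**Figure D1:**
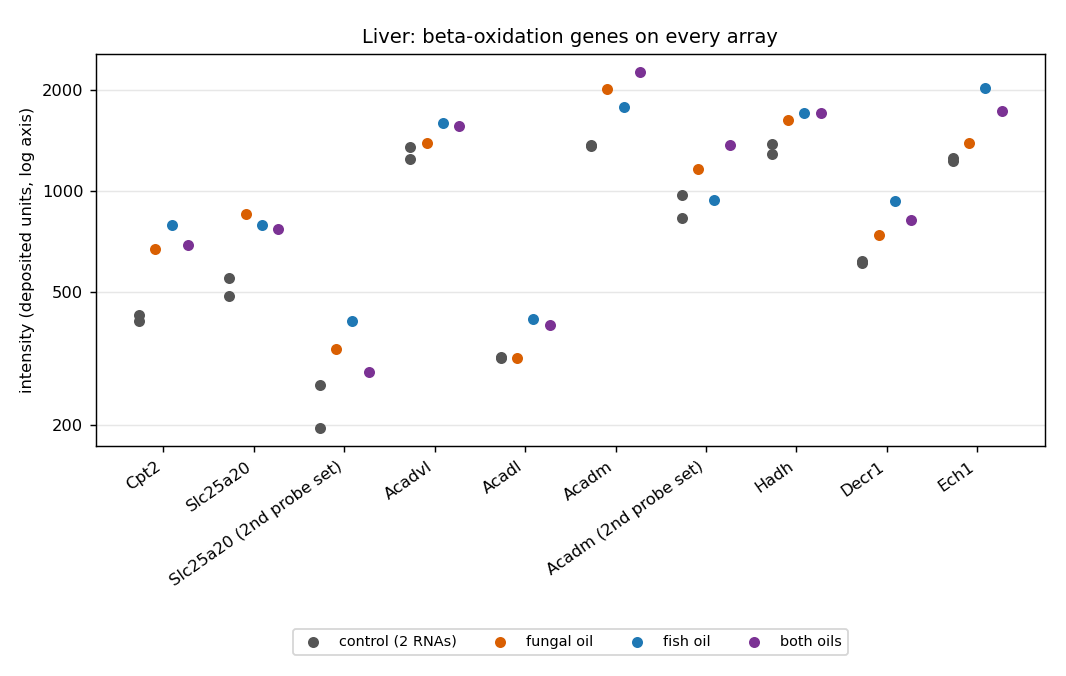
Deposited intensity (log axis) of the 10 probe sets in each liver RNA, with 1 point per RNA: 2 controls in grey, fungal oil in orange, fish oil in blue, both oils in purple. The oil points lie above both controls in 28 of 30 cases, the exceptions being Acadl with fungal oil and the second Acadm probe set with fish oil. Over all kept probe sets the share above both controls was 32.1% to 39.9% by diet. Heights of different probe sets are not comparable.

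The carnitine shuttle brings the acyl group in. Carnitine palmitoyltransferase 2 (Cpt2), which hands the acyl group back to CoA inside the mitochondrion, read 408 and 428 in the control livers, 673 with fungal oil, 791 with fish oil and 690 with both oils. All 3 oil RNAs were far above the pair of controls, which differed by 0.07 on the log2 scale. The log2 changes were 0.69, 0.92 and 0.72 (SE 0.11), which is 1.61-, 1.89- and 1.65-fold, with adjusted p = 0.505, 0.375 and 0.390 (limma).

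Slc25a20, the carrier that exchanges acylcarnitines for free carnitine across the inner membrane, read 487 and 550 in controls, 855 with fungal oil, 790 with fish oil and 767 with both. Here fungal oil gave the highest value, and the oil RNAs again stood clear of the controls. Log2 changes were 0.72, 0.61 and 0.57 (SE 0.13). Its dimmer second probe set read 196 and 263 in controls and 338, 410 and 289 in the same order of diets. In that probe set fish oil was highest, so the order of the oils for Slc25a20 depends on the probe set, while all oil values lie above the controls in both.

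Acyl-CoA dehydrogenases open each round of the spiral, and 3 of them that differ in preferred chain length were measured. The very long chain enzyme Acadvl read 1355 and 1246 in controls, 1386 with fungal oil, 1594 with fish oil and 1556 with both oils. The fungal value exceeded the higher control only narrowly, and the log2 changes were 0.09, 0.29 and 0.26 (SE 0.10). The long chain enzyme Acadl gave 319 and 318 in the control livers, 318 with fungal oil, 415 with fish oil and 397 with both. Acadl was thus level with the controls wherever fish oil was missing, with log2 changes of -0.0023, 0.38 and 0.32 (SE 0.12).

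The medium chain enzyme Acadm behaved differently from both. On chip B it read 1357 and 1371 in controls, 2014 with fungal oil, 1774 with fish oil and 2261 with both oils. On chip A it read 828 and 969 in controls, 1164 with fungal oil, 940 with fish oil and 1369 with both. Both probe sets ranked the diets alike, with both oils highest, then fungal oil, then fish oil. They are on separate arrays but read the same RNAs, 1 per oil diet, so this repeats the measurement and not the diet. On chip A the fish oil value fell between the controls. The log2 changes on chip B were 0.56, 0.38 and 0.73 (SE 0.11), and on chip A 0.38, 0.07 and 0.61 (SE 0.14).

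Hadh, the hydroxyacyl-CoA dehydrogenase that acts on short and medium chains in the third step, read 1291 and 1378 in controls, 1624 with fungal oil, 1710 with fish oil and 1707 with both. Its 3 oil values lay close together and above both controls. The log2 changes were 0.28, 0.36 and 0.36 (SE 0.09).

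A further pair of enzymes deals with the double bonds of unsaturated fatty acids. Dienoyl-CoA isomerase Ech1, which shifts double bonds, read 1226 and 1252 in controls, 1388 with fungal oil, 2031 with fish oil and 1731 with both oils. Dienoyl-CoA reductase Decr1, which removes a double bond on a conjugated intermediate, read 608 and 616 in controls, 736 with fungal oil, 935 with fish oil and 816 with both. In both genes every oil value exceeded the controls, fish oil alone was highest, and the combined diet stood between the single oils. For Ech1 the log2 changes were 0.16, 0.71 and 0.48 (SE 0.08), and the lowest adjusted p was 0.375 (limma, fish oil). For Decr1 they were 0.27, 0.61 and 0.42 (SE 0.10), with 0.382 for fish oil (limma).

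**Figure D2:**
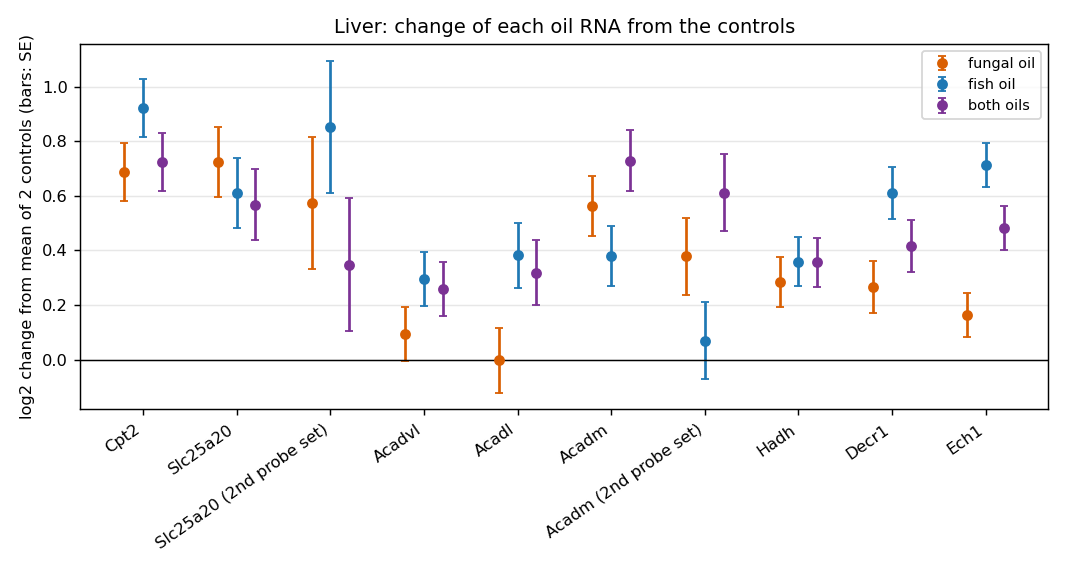
Log2 change of each oil RNA from the mean of the 2 control RNAs for the 10 liver probe sets, with bars showing the standard error of the limma fit, which rests on the control pair. Fish oil (blue) is highest for Cpt2, Ech1 and Decr1, fungal oil (orange) for the brighter Slc25a20 probe set, and both oils (purple) for both Acadm probe sets.

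By diet, fungal oil gave log2 changes of -0.0023 to 0.72 over the 8 genes, led by Slc25a20, Cpt2 and Acadm. Of the 10 probe sets 9 lay above both controls, as did 32.1% of all kept probe sets. At an unadjusted p under 0.05, 4 of 10 were higher, against 3.23% of all, and at an adjusted p under 0.05 there were 0 members and 0% of all (limma). Among the 3269 brightest probe sets, tested alone, 6 of the 10 were higher at an unadjusted p under 0.05 (5.51% of all) and 0 were called after adjustment (0.795%). The 4 were Cpt2, the brighter Slc25a20 probe set, the chip B probe set of Acadm and Hadh. An error model without an intensity trend gave 2 in place of 4, and so did a fit assuming that the oils add, where the members' median was 0.11 in place of 0.28.

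With fish oil the changes ran from 0.29 to 0.92, the smallest in Acadvl and the largest in Cpt2. Again 9 of 10 probe sets exceeded both controls, against 36.4% of all. At an unadjusted p under 0.05, 8 of 10 were higher, against 4.33% of all, which left out only Acadvl and the chip A probe set of Acadm. No member passed after adjustment, nor did any other probe set (0 of 10 against 0%, limma). Among the brightest 9 of 10 were higher at an unadjusted p under 0.05 (7.59% of all), and 0 after adjustment (1.19%). Without an intensity trend the 8 became 4, and with additive oils 5, where the members' median was 0.32 in place of 0.50.

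The combined diet put all 10 probe sets above both controls, which held for 39.9% of all. The changes ran from 0.26 in Acadvl to 0.73 in Acadm. At an unadjusted p under 0.05, 7 of 10 were higher, against 3.93% of all, and after adjustment 0 were (0% of all, limma). Among the brightest the counts were 7 of 10 (6.52%) and 0 (1.13%). Without an intensity trend the 7 became 1.

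Set against each other without the controls' level, the oils differed most in Ech1, where fungal oil read 0.55 lower than fish oil on the log2 scale (-0.55, SE 0.09, unadjusted p = 0.00808, adjusted p = 0.528, limma). Acadl (-0.38, SE 0.14), Decr1 (-0.35, SE 0.11), Cpt2 (-0.23, SE 0.12), Acadvl (-0.20, SE 0.11) and Hadh (-0.07, SE 0.10) also read lower with fungal oil. Acadm (0.18, SE 0.13) and the brighter Slc25a20 probe set (0.11, SE 0.15) read higher with it. The median over the 8 genes was -0.22, against -0.03 over all probe sets. At an unadjusted p under 0.05 the probe sets lower with fungal oil were 2 of 10, Ech1 and Decr1 (4.54% of all), 0 were higher (4.45%), and 0 passed after adjustment (0%, limma). The 2 became 1 with quantile normalization, with the brightest probe sets tested alone and with additive oils, and 0 without an intensity trend. Fish oil gave the highest value of the 3 oil diets in 6 of the 8 genes, and in those same 6 the order was fish oil, both oils, fungal oil. These ranks rest on single RNAs, and how often the order occurs over all genes was not counted. Fish oil and both oils lay within a standard error of each other in Hadh (1710 against 1707), Acadvl (1594 against 1556) and Acadl (415 against 397).

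The combined diet was also set against the sum of the single oils. The interaction, the change with both oils minus the 2 single changes on the log2 scale, was below 0 in all 8 genes, with a median of -0.34 against 0.06 over all probe sets. It was -0.88 (SE 0.16) for Cpt2, -0.77 (SE 0.20) for Slc25a20, -0.46 (SE 0.15) for Decr1 and -0.39 (SE 0.12) for Ech1. In Hadh it was -0.29, in Acadm -0.21, in Acadvl -0.13 and in Acadl -0.06, with standard errors of 0.14 to 0.18. Those first 4 genes made the 4 of 10 probe sets lower at an unadjusted p under 0.05 (3.63% of all), 0 were higher (5.66%), and 0 passed after adjustment (0%, limma, lowest adjusted p = 0.529). An error model without the trend gave 1 in place of these 4. The chip A probe set of Acadm went the other way, at 0.16 (SE 0.21). This quantity holds the control mean with the opposite sign to the single changes, so low control readings would lower it as they raise those.

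Other genes of fatty acid oxidation were taken from a list of 64, of which 23 were on the arrays and 21 passed the filter. Their median log2 changes were 0.13 with fungal oil, 0.23 with fish oil and 0.18 with both oils, each below the median of the 8 genes above. The members and this list were chosen with earlier results of these data known, so the gap between the medians is no independent result. With fungal oil 13 of 21 lay above both controls, 3 were higher and 1 lower at an unadjusted p under 0.05. Of the 3515 named genes kept, these were 1137, 135 and 215 (limma). With fish oil the counts were 18, 6 and 0 of the 21, against 1284, 170 and 227 of the 3515. With both oils they were 17, 3 and 1, against 1354, 155 and 209. None of the 21 passed after adjustment in any diet, nor did any other named gene (limma). Cpt1a, the rate-setting transferase of the outer membrane that precedes Slc25a20 and Cpt2, gave 604 and 864 in the control livers, then 1285, 1058 and 1272 with fungal oil, fish oil and both, a change of 0.83, 0.55 and 0.82 (SE 0.27). Its controls lay further apart than those of Cpt2. Acat1, a mitochondrial thiolase of ketone body metabolism, gave 1127 and 1145 in the control livers and 1378, 1810 and 1419 in the oil RNAs, with fish oil highest as in Ech1 and Decr1. The short chain dehydrogenase Acads read 855 and 919 in controls and 831, 1235 and 956, so that like Acadl it exceeded the controls with fish oil and not with fungal oil. Eci1, an isomerase that shifts double bonds as Ech1 does, gave 382 and 354 in the control livers, 405 and 396 with the single oils and 555 with both, furthest from the controls in the combined diet. Hadha, a subunit of the trifunctional protein, read 1136 and 1160 in controls and 1040, 1235 and 1315 in the oil RNAs. It lay below both controls with fungal oil and above both with fish oil and with both oils.

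Not all parts of the machinery read higher. Etfb, a subunit of the flavoprotein that takes electrons from the acyl-CoA dehydrogenases, read 1073 and 1081 in controls, 1178 and 1065 with the single oils and 646 with both, a log2 change of -0.74 (SE 0.09). Slc27a1, a fatty acid transporter, gave 187 and 172 in the control livers, 84 with fungal oil (-1.09, SE 0.17), but 198 and 200 with fish oil and both oils. Of the peroxisomal genes, the catalase gene Cat read 3282 and 3091 in controls and 3546, 3613 and 3447, the bifunctional enzyme Hsd17b4 1793 and 1898 against 2157, 2300 and 2330, and the acyl-CoA importer Abcd3 1709 and 1798 against 1675, 1739 and 1788. Cat and Hsd17b4 exceeded both controls in every oil RNA, by less than Cpt2 or Ech1 did with fish oil, and Abcd3 did not. Hsd17b10, a mitochondrial dehydrogenase of the third step, gave 1385 and 1023 in the control livers and 1430, 1778 and 1468 in the oil RNAs, above controls that lay far apart. The acyl-CoA synthetase Slc27a2 gave 2926 and 3006, then 3464, 3472 and 3302, and the epoxide hydrolase Ephx2 1139 and 1327, then 1338, 1654 and 1380. On a list of 29 other PPAR target and regulator genes, 16 were kept, with medians of 0.25, 0.42 and 0.28. They spread widely, from -1.05 to 3.41 with fungal oil, -0.63 to 4.68 with fish oil and -0.93 to 1.76 with both. Lpl was lowest and Cyp4a14, whose controls read -10 and -5, was highest in every oil diet. Above 0 were 10, 13 and 11 of the 16. Ppara, which encodes the receptor, read 1158 and 1325 in controls and 1626, 1243 and 1175, above them with fungal oil only.

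**Figure D3:**
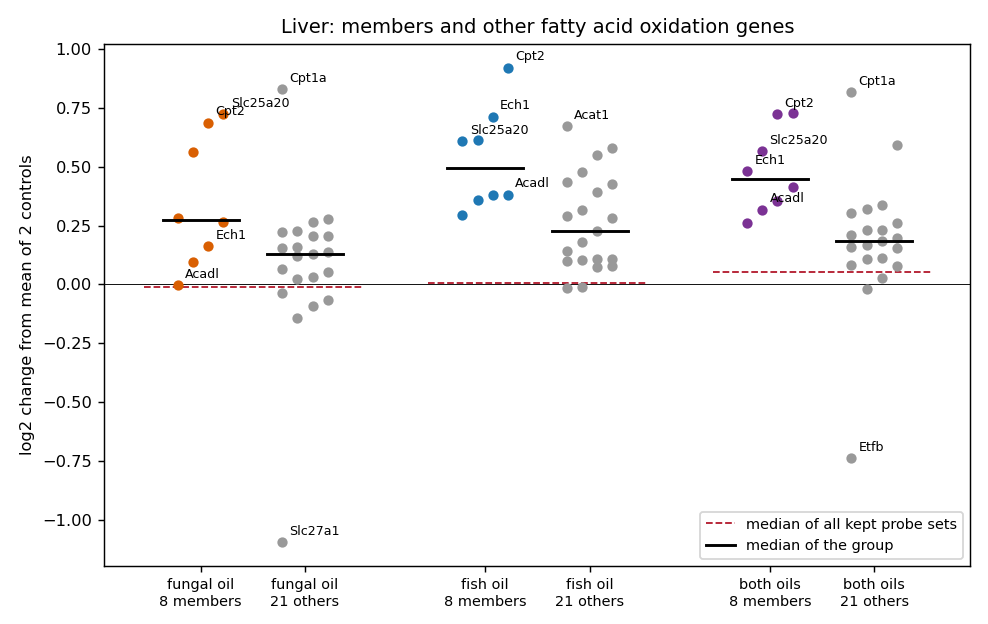
Log2 change from the control mean in each liver oil RNA for the 8 genes (coloured, left of each pair) and the 21 other oxidation genes (grey), with black bars at the group medians and a red dashed line at the median of all kept probe sets. The medians of the 8 genes are 0.28, 0.50 and 0.45, and those of the 21 others 0.13, 0.23 and 0.18. Both groups were chosen with earlier results of these data known.

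Outside the pathway, the genes whose 3 liver changes came nearest to the members' medians were sought among 1840 bright named genes by the root mean square difference over the 3 diets. The nearest 5 were Adh1 (0.04), an alcohol dehydrogenase, Abcb4 (0.06), the phospholipid exporter of bile, Dram2 (0.06), Cyp3a13 (0.07), a cytochrome P450, and Tmco1 (0.07). In all, 17 of the 1840 lay within 0.1. Among the members Decr1 (0.07) and Hadh (0.10) were closest to that median profile and Cpt2 (0.38) was furthest from it.

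Cell type markers and RNA quality were read on the same liver arrays. The 8 measured hepatocyte markers summed to 65698 and 55665 in controls and 62232, 71342 and 62163 with fungal oil, fish oil and both, none of them at or below the floor of 15.0. All 8 were kept, with 1, 5 and 1 above both controls and 4, 2 and 3 below both, in the same order of diets. The macrophage and Kupffer cell markers, 12 measured of 13, summed to 2430 and 2268 in controls and 1575, 1813 and 1840, so they were lower in every oil RNA. Of the 10 of these that were kept, 10, 8 and 7 lay below both controls in the 3 oil RNAs. For comparison with all marker counts, 1353, 1314 and 1181 of the 3515 named genes kept lay below both controls. Above both lay 1137, 1284 and 1354. The 10 stellate, endothelial and connective tissue markers summed to 1509 and 1291 in controls and 1121, 1432 and 1126, and of the 7 kept, 5, 2 and 5 lay below both controls. The 8 measured blood markers summed to 11846 and 10219 in controls and 10451, 13159 and 7905, with 2, 2 and 4 of the 6 kept below both controls. The part of these markers in the diet results above was not tested. In such bulk tissue, fewer cells of a type and less RNA per cell cannot be told apart. Neuron markers summed to 62 to 107 in liver. Gapdh signal at the 3-prime end over that at the 5-prime end, a sign of RNA quality, varied between the liver arrays. On chip A, which carries 9 of the 10 probe sets, it was 2.07 and 1.91 in controls, 2.48 with fungal oil, 1.95 with fish oil and 1.89 with both oils. On chip B it was 2.23 and 1.99 in controls and 2.51, 3.26 and 1.92. For Gapdh, fungal oil thus lay above both controls on both chips, fish oil on chip B only, and both oils below them on both. The same ratio for actin on chip A was 3.94 and 3.42 in controls. With fungal oil, fish oil and both oils it was 3.87, 3.49 and 3.51, between the controls. On chip B the actin ratio was 3.71 and 3.38 in controls and 4.17, 3.33 and 3.32. In hippocampus the Gapdh ratio was 0.840 to 0.947 and the actin ratio 1.33 to 1.55. The part of RNA quality in the diet changes above and in the tissue differences below was not tested. Of the array values, 15.2% to 34.5% were negative after background subtraction.

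All 8 genes were higher in liver than in hippocampus. With a threshold of 2-fold and an adjusted p of 0.05, 10 of 10 probe sets passed as higher in liver, as did 19.9% of the 6535 tested (limma, tissue and diet as terms). Probe sets were kept for this test by their mean over both tissues. Those of Cpt2, Decr1 and Acadl were too dim to be kept in hippocampus alone and entered through their liver signal. Their calls as higher in liver thus follow largely from the filter, and they count in the 10 and in the median below. The 7 member probe sets kept in hippocampus alone all passed too. The 21 other oxidation genes below were kept by the same mean, and how many entered through liver was not counted. For the probe sets off the floor the differences ran from 4.51-fold (Ech1) to 12.3-fold (Acadm, chip B), and adjusted p from 8.65e-07 to 6.47e-05 (limma). The lowest over all 10, 7.26e-07 (limma), was that of Decr1, whose hippocampus values were all set to the floor and so had no spread. Cpt2 read -30, 0 and -23 in the hippocampus of control, fungal oil and fish oil mice, and Decr1 0, 12 and 2, below the floor on all 3 arrays. Against that floor Cpt2 was at least 38.4-fold and Decr1 at least 48.7-fold higher in liver. These bounds follow the floor, and with one of 37.6 they were 15.4-fold and 19.5-fold. Of the 21 other oxidation genes 18 were higher in liver and 0 lower, with a median log2 difference of 2.83, against 3.26 for the 8 genes and -0.25 over all probe sets. The 3 that did not pass were Crat, a carnitine acetyltransferase (0.76), the dehydrogenase Acad9 (0.30) and Slc27a1 (-0.43).

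**Figure D4:**
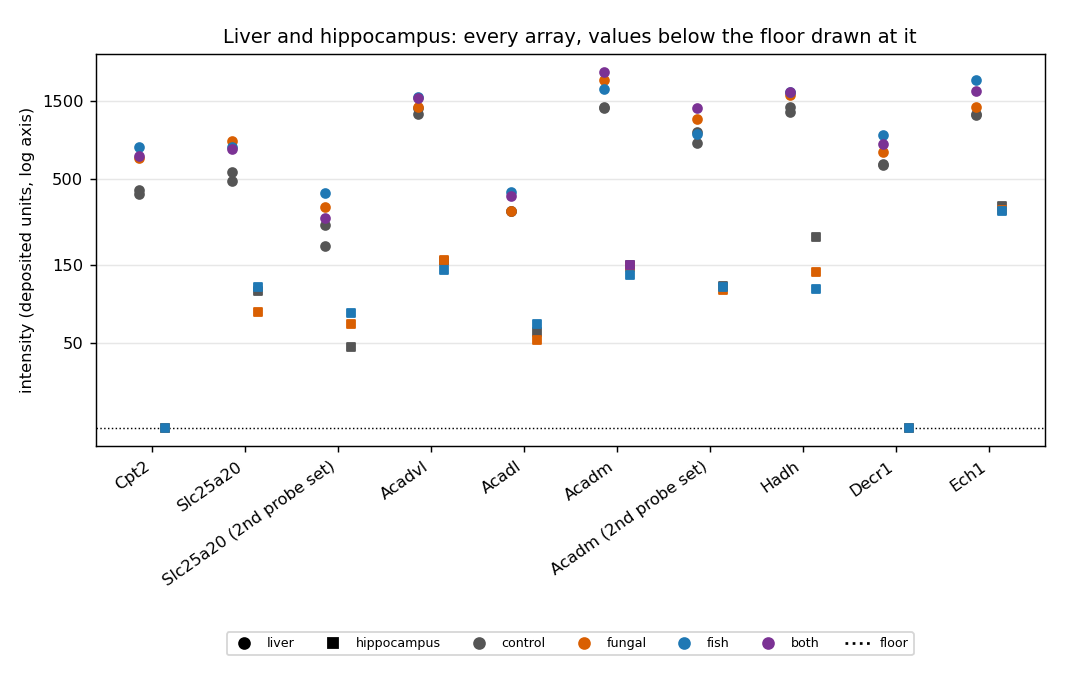
Deposited intensity (log axis) of the 10 probe sets on every array, circles for liver and squares for hippocampus, coloured by diet, with values under the floor of 15.0 drawn on the dotted line. Every liver point lies above every hippocampus point of its probe set, and Cpt2 and Decr1 sit at the floor in hippocampus.

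In hippocampus each diet has 1 RNA, so changes there have no replicate check. Hadh read 221 in the control, 135 with fungal oil and 106 with fish oil, log2 ratios of -0.71 and -1.06. Ech1 read 341, 324 and 319 in the same order, Acadvl 159, 160 and 140, Acadl 58, 52 and 65, and Acadm 112, 105 and 110 on chip A. On chip B Acadm read 150, 146 and 130, and 149 with both oils. Apart from Hadh these values differed from the control by at most 0.21 on the log2 scale. The 2 probe sets of Slc25a20 disagreed, with 104, 77 and 110 for the brighter and 47, 65 and 76 for the other. Of the 7 member probe sets kept in hippocampus, Hadh was at least 1.5-fold lower with fungal oil (1 of 7, against 6.36% of all) and 0 were higher (7.86%). With fish oil Hadh was lower (1 of 7, 7.05%) and the dimmer Slc25a20 probe set higher (1 of 7, 7.97%). Markers of choroid plexus and meninges summed to 1426 in the hippocampus control, 4634 with fungal oil and 2534 with fish oil. Those of stellate, endothelial and connective cells summed to 1097, 2126 and 1531. Neuron markers gave 6992, 7025 and 7059, and astrocyte markers 2363, 2189 and 2061. The part of these markers in the hippocampus changes was not tested.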

How the data were processed

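The deposited values are intensities, 1 for each probe set on an array, as whole numbers that can be negative. How the authors subtracted background and scaled is not given in the sources used here. Every array has a mean near 150 after trimming 2% at each end. Groups came from array titles and descriptions. Probe sets were named from the platform annotation, and the 55 spike-in and quality controls of each chip were excluded. Intensities under 15.0 (0.1 times that mean) were set to it and log2 was taken. Probe sets dimmer, on average, than the median one of that chip and tissue were dropped. For the comparison of the tissues the average ran over the arrays of both.

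Liver was fitted per chip as 4 diet groups with limma 3.58.1 in R 4.3.3 (lmFit, eBayes with intensity trend), with Benjamini-Hochberg adjustment over both chips. There was 1 residual degree of freedom, and each oil RNA was assumed to vary as the controls do. Tissues were compared with tissue and diet as terms after scaling arrays alike, and bounds came from group means. Every member was named, plus selected pathway genes: those passing, up to 6 with the largest change per diet, and the 5 genes nearest in pattern. A few further pathway genes were picked for their role after their values were seen. The members and lists were chosen with earlier results of these data known. The fit was tested on simulated data. The number of arrays and signal over background limit precision. Alternatives were quantile normalization, other floors and filters, no trend, additive oils, the mean over probe sets and leaving out arrays.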

Additional observations from a re-analysis of the deposited data

Results flagged for a closer look

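Opposite directions in the tissues, each by at least 1.2-fold, drew attention to 2 genes. With fungal oil the brighter Slc25a20 probe set read 0.72 higher than control in liver and -0.43 in hippocampus, a difference of 1.16 on the log2 scale (limma, adjusted p = 0.460), whereas the dimmer one read higher in both, by 0.57 and 0.47. For Hadh the difference was 0.995 with fungal oil (0.28 against -0.71; limma, adjusted p = 0.460) and 1.42 with fish oil (0.36 against -1.06; limma, adjusted p = 0.407). None of the 3 passed after adjustment, and each hippocampus value is 1 array.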

How the results depend on the processing

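Quantile normalization, additive oils, averaging probe sets and leaving out a control gave 102 liver changes of single members from control, of which 99 kept their direction. The floors, filters and trend setting leave these changes as they are, so they tested only the p-values. Over the alternatives run, no liver diet count of members at an adjusted p under 0.05 left 0. Reversed were Acadl with fungal oil under quantile normalization (0.011; leaving out either control gave -0.0045 and 0), Ech1 with fungal oil when the oils were assumed to add (-0.0052), and Slc25a20 in fungal against fish oil as the mean of its probe sets (-0.082). Without an intensity trend the probe sets at an unadjusted p under 0.05 numbered 2 with fungal oil, 4 with fish oil, 1 with both oils, 0 for fungal against fish oil and 1 for the interaction. Additive oils gave 2 with fungal oil (median 0.11), 5 with fish oil (median 0.32) and 1 for fungal against fish oil, as did quantile normalization and the bright subset for that contrast. The median tissue difference ran from 3.04 to 3.55 when single RNAs were left out. The causes were not tested. No analysis paired by mouse was run, as the labels used here do not link RNAs to single mice. The tissues were matched only by diet, as a term of that fit. Cage and day of death cannot be told apart from diet, and 1 RNA per oil diet leaves the spread within a diet unmeasured.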
